A study of Mus musculus with 41 samples.

Results

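The miR-199 and miR-214 probes of a mouse spleen microarray were examined across 4 genotypes, with and without treatment. A probe was included where its name began with mmu-mir-199 and any letter or with mmu-mir-214, whatever followed. The rule found 10 probes of 637, read from the miRNAs mmu-mir-199a, mmu-mir-199b and mmu-mir-214.

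Total RNA came from whole spleens of C57BL mice and was hybridised as biotin-labelled cDNA, 1 array per labelled sample. Each genotype had saline controls, labelled Control, and mice given C. Parvum, a treatment that the labels give by this name only, without dose or time. Wild type (WT, p53+/+NOS2+/+) had 5 control and 5 treated arrays, and p53+/+NOS2-/- (NOS2KO) had 5 and 5. There were 4 and 5 arrays of p53-/-NOS2+/+ (p53KO), and 6 and 6 of p53-/-NOS2-/- (double knockout, DKO). The labels restrict neither knockout to a cell type. NOS2 makes nitric oxide in stimulated macrophages, and p53 is a tumour suppressor that controls transcription. The submitters' design text gives 4 or 5 mice to a group and leaves the DKO out. Whether every DKO array stands for a separate mouse is not stated, and p-values measure the spread between arrays.

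The miR-199a-2 and miR-214 hairpins lie on 1 noncoding transcript, Dnm3os, which runs opposite to the gene Dnm3. A hairpin is cut to a short duplex whose 5p and 3p strands can each enter Argonaute and repress mRNAs through the seed, bases 2 to 8. The cluster is known from mesenchymal cells such as fibroblasts, smooth muscle and pericytes, where the factor Twist1 drives Dnm3os, and it has been linked to fibrosis. In a spleen such cells are the reticular cells, the vessel walls and the capsule, a minority beside the blood cells. In whole tissue, fewer cells of a type and less RNA per cell cannot be told apart.

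The hairpins are shown because their sequences set what a probe can tell apart. They are RefSeq sequences on GRCm38.p6, 5′ to 3′, with the mature arms listed by RefSeq in capitals. Mir199a-2 lies at chr1:162217814-162217923 and Mir214 at chr1:162223368-162223477, both on the plus strand, with 5444 bases between them, and both inside the annotated spans of Dnm3 and Dnm3os. Mir199a-1 lies at chr9:21496495-21496564 on the minus strand inside Dnm2. Mir199b lies at chr2:32318460-32318569 on the plus strand inside Dnm1.
Mir199a-2: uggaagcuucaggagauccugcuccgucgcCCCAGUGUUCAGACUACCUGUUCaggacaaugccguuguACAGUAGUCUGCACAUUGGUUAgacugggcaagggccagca
Mir199a-1: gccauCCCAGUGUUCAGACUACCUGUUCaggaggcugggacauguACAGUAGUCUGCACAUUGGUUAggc
Mir199b: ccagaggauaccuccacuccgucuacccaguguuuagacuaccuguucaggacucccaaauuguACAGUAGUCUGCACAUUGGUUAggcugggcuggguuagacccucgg
Mir214: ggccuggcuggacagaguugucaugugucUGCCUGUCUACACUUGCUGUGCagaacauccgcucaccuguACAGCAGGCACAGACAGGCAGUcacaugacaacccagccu

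The mature strands follow with the seed in capitals.
miR-199a-3p and miR-199b-3p: aCAGUAGUcugcacauugguua
miR-199a-5p: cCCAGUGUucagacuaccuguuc
miR-214-3p: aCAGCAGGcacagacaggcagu
miR-214-5p: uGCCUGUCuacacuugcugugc
The miR-199 3p strand is identical in 3 hairpins on 3 chromosomes, and the miR-199a 5p strand in 2. A signal for the mature 3p strand therefore does not tell which of these loci made it. The 4 seeds differ from each other. In the RefSeq list of 1679 mature mouse miRNAs, the miR-214-3p seed was shared with 1 other, miR-761, and the other 3 seeds with none outside the family. The sequences of the array's probes were not used here, so the arm is known only where a name states it. The name of the miR-214 probe states no arm.

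A level below is a normalized log2 signal, and the base of the logarithm was inferred from the values, not stated with them. No value was given for 40.4% of all cells, and an array gave values for 310 to 464 probes. A value was present on all 41 arrays for 5 member probes. They are mmu-mir-199a*-1-3p-a, mmu-mir-199a*-2-3p-a and mmu-mir-199a*-3p-a, called the 3p probes here, mmu-mir-199a-2-5p-ap and mmu-mir-214-a. The other members, mmu-mir-199a-1-5p-a, mmu-mir-199a-5p-a, mmu-mir-199b-ap, mmu-mir-199b-p and mmu-mir-199b-a, had values on 24, 24, 24, 16 and 14 arrays. No label explains the endings -a, -p and -ap.

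The arrays were divided by their values into sets that the labels do not name. The sign of the second principal component of the probes measured everywhere, without the members, which held 19.4% of their variance, put 18 arrays in set 1 and 23 in set 2. A cut by sign gives sets in any data. The component ran from -0.209 to 0.445, and nearest the cut were DKO control 1 at 0.0158 and p53KO control 5 at -0.0219. Set 1 took in the whole of WT, DKO control 1 to 5, DKO C. Parvum 6 and treated NOS2KO arrays 1 and 2. Set 2 held all p53KO arrays, all NOS2KO controls, NOS2KO C. Parvum 3 to 5, DKO control 6 and DKO C. Parvum 1 to 5. Within groups, the 3p probes were higher in set 2, by 0.757 ± 0.22 (SE, adjusted p = 0.015) for mmu-mir-199a*-1-3p-a, by 0.716 ± 0.199 (adjusted p = 0.0112) for mmu-mir-199a*-2-3p-a and by 0.604 ± 0.196 (adjusted p = 0.0297) for mmu-mir-199a*-3p-a. That comparison called 14.6% of the 357 probes tested. The difference for mmu-mir-214-a was 0.15 ± 0.146 (adjusted p = 0.618). These set differences rest on treated NOS2KO and both DKO groups, the only groups that span the sets. Each DKO group has 1 array in its smaller set. For mmu-mir-199a*-3p-a that array lay inside the range of the others, at 9.98 in control 6 and 9.15 in C. Parvum 6. In the other 3p probes control 6 was the highest DKO control. Treated NOS2KO arrays 1 and 2 had 8.20 and 8.12 for mmu-mir-199a*-3p-a, below arrays 3 to 5. The WT and the p53KO treatment effects each lie within 1 set, whereas the NOS2KO and DKO effects and every comparison of p53KO or NOS2KO controls with WT cross the sets.

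In WT spleens, all 3p probes and mmu-mir-214-a fell after C. Parvum, and the 5p probe measured on every array did not pass the test. The level of mmu-mir-199a*-3p-a was 9.05, 10.05, 9.28, 9.52 and 9.70 in control 1 to 5, with a mean of 9.52 ± 0.383 (SD, n = 5). In the treated WT arrays it was 8.30, 8.53, 8.36, 8.40 and 8.58, with a mean of 8.44 ± 0.119 (SD, n = 5). Every treated array was below every control, and the treated arrays lay closer together than the controls. The level fell by 1.08 on the log2 scale (SE 0.232, adjusted p = 0.000352), a 2.12-fold difference. The level of mmu-mir-214-a was 9.42, 9.20, 9.08, 9.34 and 9.38 in the controls and 8.78, 8.88, 8.79, 8.55 and 8.78 after treatment. These groups did not overlap either, and miR-214 fell by 0.53 (SE 0.157, adjusted p = 0.00722), a 1.44-fold difference.

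The other 3p probes gave WT changes close to that of mmu-mir-199a*-3p-a. The probe mmu-mir-199a*-1-3p-a fell by 1.16 (SE 0.267, adjusted p = 0.000783) and mmu-mir-199a*-2-3p-a by 1.06 (SE 0.244, adjusted p = 0.000781), with no overlap of the groups in either. By name these probes address the same strand, so they are no independent measurements of it. The change of mmu-mir-199a-2-5p-ap was 0.108 ± 0.255 (SE, adjusted p = 0.761), with a 95% confidence interval from -0.408 to 0.624. Its WT controls were spread from 9.15 to 10.84, around the treated range of 9.96 to 10.33. Thus 4 of 5 tested members were called lower and none higher, where 17.2% of the 319 probes tested were called lower and 17.2% higher. The median change was -1.06 over the 5 members and 0.0641 over all probes tested.

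**Figure D1:**
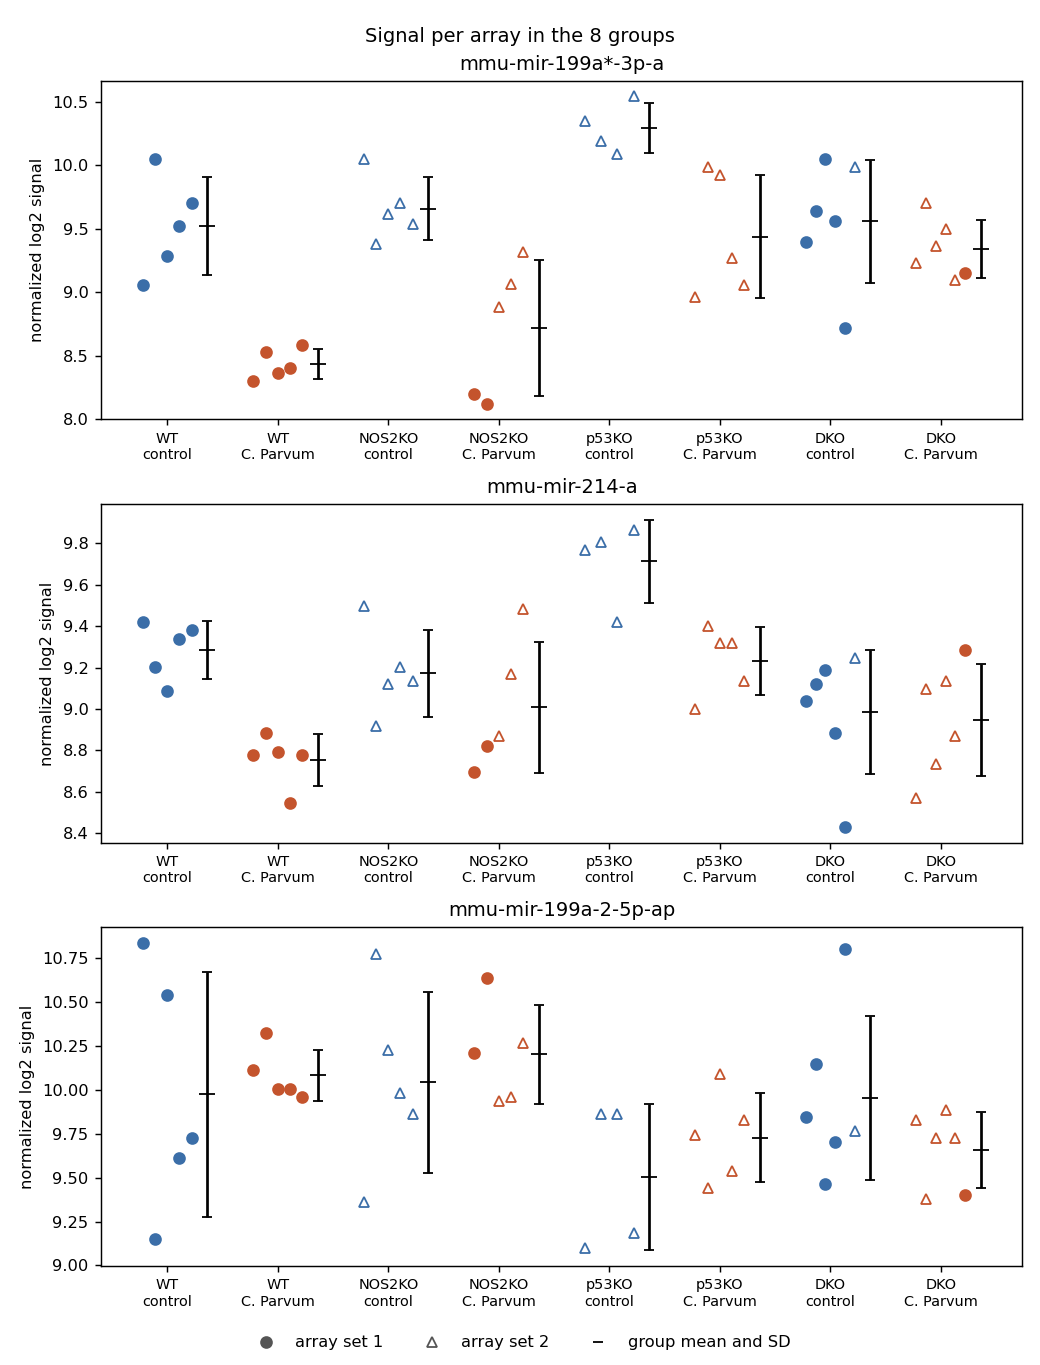
Normalized log2 signal (y axis) of 3 probes on each array of the 8 groups (x axis), with controls in blue, C. Parvum in red, filled circles for array set 1, open triangles for set 2, and the group mean with its SD in black. The treated WT arrays lie between 8.30 and 8.58 for mmu-mir-199a*-3p-a, below all WT controls, and the p53KO controls, at 10.09 to 10.54, lie above all other arrays, the highest of which are at 10.05.

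In NOS2KO spleens the 3p probes fell as well, while the change of miR-214 did not pass. The level of mmu-mir-199a*-3p-a was 10.05, 9.38, 9.61, 9.70 and 9.54 in the controls. In the treated arrays 1 to 5 it was 8.20, 8.12, 8.88, 9.07 and 9.32. The groups did not overlap, and treated arrays 1 and 2, those of set 1, were the lowest. The level fell by 0.94 (SE 0.233, adjusted p = 0.00276). The probe mmu-mir-199a*-1-3p-a fell by 1.26 (SE 0.268, adjusted p = 0.00076), and mmu-mir-199a*-2-3p-a by 0.77 (SE 0.245, adjusted p = 0.0193).

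For mmu-mir-214-a the NOS2KO controls had 9.50, 8.92, 9.12, 9.20 and 9.13, and the treated arrays 8.70, 8.82, 8.87, 9.17 and 9.48. These groups overlapped, and the change was -0.17 ± 0.157 (SE, adjusted p = 0.44, 95% confidence interval -0.484 to 0.152). The change of mmu-mir-199a-2-5p-ap was 0.16 ± 0.256 (adjusted p = 0.675). In all, 3 of 5 tested members were called lower, none higher, against 13.6% of the 346 probes tested called lower and 12.1% higher. The set bears on these values. With the set as a block, which called 19.1% of probes, mmu-mir-199a*-1-3p-a changed by -0.953 (adjusted p = 0.00599) and mmu-mir-199a*-3p-a by -0.698 (adjusted p = 0.0222), while mmu-mir-199a*-2-3p-a had -0.483 (adjusted p = 0.121). Within set 2 alone, with 3 treated arrays, no 3p probe passed, at -0.741, -0.322 and -0.566 (adjusted p = 0.0811, 0.376 and 0.115), and miR-214 was at 0.000202. Without NOS2KO C. Parvum 1 or 2, mmu-mir-199a*-2-3p-a lost its call, at -0.619 and -0.584 (adjusted p = 0.0758 and 0.0831), as it did with only the NOS2KO arrays in the fit (adjusted p = 0.0969).

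In p53KO spleens, whose arrays all belong to set 2, the 3p probes and miR-214 fell from a higher control level. The level of mmu-mir-199a*-3p-a was 10.35, 10.19, 10.09 and 10.54 in controls 1, 2, 4 and 5, and 8.96, 9.98, 9.92, 9.27 and 9.05 in the treated arrays. Treated arrays 2 and 3 came close to the controls without overlapping them. The level fell by 0.85 (SE 0.246, adjusted p = 0.009), a 1.81-fold difference, and kept its call in all 9 fits that left out 1 array. The level of mmu-mir-214-a was 9.77, 9.80, 9.42 and 9.86 in the controls and 8.998, 9.40, 9.32, 9.32 and 9.13 after treatment. It fell by 0.48 (SE 0.167, adjusted p = 0.0283), without overlap. That call ended under median centring (-0.408, adjusted p = 0.0629) and with only the p53KO arrays in the fit (adjusted p = 0.0517).

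The other p53KO calls were less firm. The probe mmu-mir-199a*-1-3p-a fell by 0.80 (SE 0.283, adjusted p = 0.0291) and mmu-mir-199a*-2-3p-a by 0.79 (SE 0.259, adjusted p = 0.0211), and their groups overlapped. The call of mmu-mir-199a*-1-3p-a ended with missing cells at a low value (adjusted p = 0.0576) and with only the p53KO arrays in the fit (adjusted p = 0.0696). Leaving out p53KO C. Parvum 1, 4 or 5 or control 1, 4 or 5 ended the call of mmu-mir-199a*-1-3p-a, at -0.706, -0.714, -0.678, -0.813, -0.789 and -0.648. For mmu-mir-199a*-2-3p-a the same held without C. Parvum 1 or 5 or control 5, at -0.694, -0.69 and -0.657. For miR-214 it held without C. Parvum 1 or 5 or control 1, 2 or 5, at -0.422, -0.456, -0.463, -0.451 and -0.431. The 5p probe mmu-mir-199a-5p-a, measured on 4 controls and 3 treated arrays, was at 8.34, 7.97, 8.04 and 8.09 against 7.93, 6.23 and 5.55. Its change of -1.54 ± 0.648 (SE) did not pass (adjusted p = 0.0741), and it passed on the values as deposited (-1.59, adjusted p = 0.024), with missing cells at a low value (-2.03, adjusted p = 0.0355), with array weights (-1.81, adjusted p = 0.0227) and with only the p53KO arrays in the fit (adjusted p = 0.0403). The change of mmu-mir-199a-2-5p-ap was 0.23 ± 0.27 (adjusted p = 0.581). In all, 4 of 6 tested members were called lower, none higher, against 15.1% of the 324 probes tested called lower and 13.9% higher.

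In DKO spleens no member passed the test. The level of mmu-mir-199a*-3p-a ran from 8.72 over a median of 9.60 to 10.05 in 6 controls, and from 9.10 over 9.29 to 9.70 in 6 treated arrays, so the treated values lay inside the control range. Its change was -0.22 ± 0.213 (SE, adjusted p = 0.556), with a 95% confidence interval from -0.65 to 0.215. It ran from -0.385 without DKO control 5 to -0.12 without DKO control 3, and no fit that left out 1 array gave a call. The level of mmu-mir-214-a ran from 8.43 over 9.08 to 9.25 in the controls and from 8.57 over 8.98 to 9.28 after treatment, a change of -0.04 ± 0.144 (adjusted p = 0.872). None of the 8 tested members was called, where 14.1% of the 377 probes tested were called, 6.1% of them lower and 7.96% higher as shares of all tested. The change was -0.20 for mmu-mir-199a*-1-3p-a, -0.24 for mmu-mir-199a*-2-3p-a, -0.30 for mmu-mir-199a-2-5p-ap, and 0.52 for mmu-mir-199b-ap. Leaving out 1 array moved these by more than 1.5 times as well, from -0.342 to -0.094, from -0.4 to -0.118, from -0.395 to -0.128 and from 0.264 to 0.833.

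In the DKO, treatment and set nearly coincide, since 5 of 6 controls are in set 1 and 5 of 6 treated arrays in set 2, the set in which the 3p probes were higher. When the set entered as a block, the DKO changes of the 3p probes were -0.701, -0.713 and -0.62 (adjusted p = 0.11, 0.0952 and 0.11), where 2.92% of probes were called. This moved mmu-mir-199a*-3p-a by more than 1.5 times without giving a call. The block was estimated from all groups that span both sets, which include treated NOS2KO with 2 arrays in set 1 and 3 in set 2. Within the DKO it rests on the single arrays that lie in the other set, DKO control 6 and DKO C. Parvum 6. Without both, an alternative chosen after seeing the data, the change of mmu-mir-199a*-3p-a was -0.095 (adjusted p = 0.803). That fit leaves DKO controls in set 1 only and treated DKO arrays in set 2 only, so it cannot separate treatment from set.

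Over the 4 genotypes with equal weight, the 3p probes fell by 0.85 (SE 0.132, adjusted p = 1.02e-06), 0.71 (SE 0.121, adjusted p = 4.66e-06) and 0.77 (SE 0.115, adjusted p = 5.06e-07) in the order given above. On the same scale mmu-mir-214-a fell by 0.30 (SE 0.0783, adjusted p = 0.00109), and mmu-mir-199a-2-5p-ap had a change of 0.05 ± 0.126 (SE, adjusted p = 0.75). Here 4 of 5 tested members were called lower, none higher, against 26.1% of the 291 probes tested called lower and 31.6% higher. With the set as a block, which called 60.5% of probes, they were -0.904, -0.761 and -0.814 for the 3p probes and -0.313 for miR-214. All 4 calls held in each of the 41 fits that left out 1 array.

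**Figure D2:**
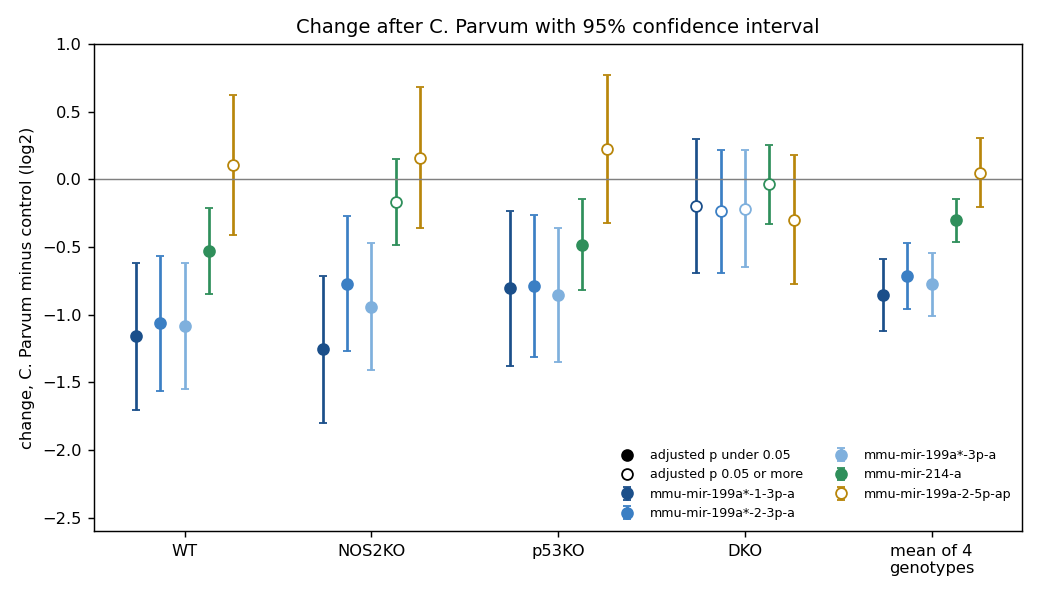
Change after C. Parvum (y axis, log2) with its 95% confidence interval for the 5 probes measured on all arrays, in each genotype and as the mean over the 4 genotypes (x axis). Filled points passed an adjusted p of 0.05. The 3p probes passed in WT, NOS2KO and p53KO, mmu-mir-214-a in WT and p53KO, and none of the 5 in the DKO.

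Scaling moved the middle of all probes, so the changes were also read against it. The median change over all probes in WT was 0.0641 after quantile normalization, -0.058 as deposited and 0.235 after median centring. Relative to that median, mmu-mir-199a*-3p-a in WT stood at -1.14, -1.26 and -1.27, and mmu-mir-214-a at -0.593, -0.643 and -0.644. In NOS2KO the relative change of mmu-mir-199a*-3p-a was -1.0, -1.03 and -1.03, in p53KO -0.897, -1.06 and -1.06, and in the DKO -0.279, -0.302 and -0.306. The direction of mmu-mir-199a-2-5p-ap turned on the deposited values, where it changed by -0.133 in WT, -0.0837 in NOS2KO and -0.0439 in p53KO. The split of all calls into lower and higher moved as well. It was 55 and 55 in WT, 71 and 40 as deposited, and 49 and 79 after centring. In NOS2KO it was 47 and 42, 70 and 25, and 34 and 68 in the same order, in p53KO 49 and 45, 68 and 31, and 31 and 85, in the DKO 23 and 30, 9 and 18, and 9 and 31, and in the mean effect 76 and 92, 103 and 66, and 63 and 126.

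Among controls, the 3p probes were higher in p53KO than in WT, by 0.88 (SE 0.283, adjusted p = 0.02), 0.77 (SE 0.259, adjusted p = 0.025) and 0.77 (SE 0.246, adjusted p = 0.0192), without overlap. The difference for mmu-mir-214-a was 0.43 ± 0.167 (SE, adjusted p = 0.0507), and its lowest p53KO control was level with the highest WT control at 9.42. Here 3 of 8 tested members were called higher, against 14.6% of the 315 probes tested. Among treated arrays the p53KO exceeded WT by 1.23 (SE 0.267, adjusted p = 0.000763), 1.05 (SE 0.245, adjusted p = 0.0017) and 1.001 (SE 0.232, adjusted p = 0.00162) in the 3p probes, and by 0.48 (SE 0.158, adjusted p = 0.0226) in miR-214, so 4 of 5 were called higher, against 12.7%. The WT and p53KO arrays share no set, so genotype and set cannot be told apart directly. With the set as a block, estimated from the groups that span both sets, mmu-mir-199a*-3p-a differed by 0.167 among controls (adjusted p = 0.857) and by 0.397 among treated arrays (adjusted p = 0.6), and no member kept its call. Among controls the call of mmu-mir-199a*-3p-a was also lost without WT control 1 (0.654, adjusted p = 0.0541) or p53KO control 5 (0.688, adjusted p = 0.0569). That of mmu-mir-199a*-1-3p-a was lost without the same arrays (0.751 and 0.721), and that of mmu-mir-199a*-2-3p-a without WT control 1 or 3 or p53KO control 1 or 5 (0.676, 0.716, 0.76 and 0.642). The miR-214 call among treated arrays was lost without WT C. Parvum 4 (0.425) or p53KO C. Parvum 2 or 3 (0.436 and 0.457).

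Against WT, treated DKO arrays had higher 3p probes, by 1.12 (SE 0.257, adjusted p = 0.0024), 0.90 (SE 0.235, adjusted p = 0.0054) and 0.90 (SE 0.223, adjusted p = 0.00346). Here 3 of 6 tested members were called higher, against 9.91% of the 343 probes tested. The difference in miR-214 was 0.19 ± 0.151 (adjusted p = 0.411). Blocked by set, the 3p differences were 0.488, 0.3 and 0.4, none past the threshold. DKO and WT controls, which mostly share set 1, differed by 0.04 ± 0.223 in mmu-mir-199a*-3p-a (adjusted p = 0.933) and by -0.30 ± 0.15 in mmu-mir-214-a (adjusted p = 0.166), and no member was called, where 13.7% of the 343 probes tested were. No member was called between NOS2KO and WT, among controls (23.1% of probes called) or among treated arrays (2.37%). In mmu-mir-199a*-3p-a NOS2KO exceeded WT by 0.14 ± 0.232 among controls and by 0.28 ± 0.233 among treated arrays.

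The difference between a knockout's treatment effect and that of WT was tested directly, and no member passed. For the DKO, mmu-mir-199a*-3p-a gave 0.87 ± 0.314 (SE, adjusted p = 0.0833) and mmu-mir-214-a 0.49 ± 0.212 (adjusted p = 0.141), where 5.13% of the 312 probes tested were called. With the set as a block these were 0.464 and 0.393. For p53KO mmu-mir-199a*-3p-a gave 0.23 ± 0.337 (adjusted p = 0.955), and for NOS2KO 0.15 ± 0.327 (adjusted p = 0.877), in comparisons that called 0% of 293 probes and 0.328% of 305. The 3p calls in WT and their absence in the DKO are therefore no shown difference between the genotypes. Leaving out WT control 1 gave the DKO difference of mmu-mir-199a*-3p-a a call (0.984, adjusted p = 0.0418).

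Ordered by group mean, mmu-mir-199a*-3p-a was highest in p53KO controls (10.29), followed by the controls of NOS2KO (9.66), DKO (9.56) and WT (9.52), then by treated p53KO (9.44), DKO (9.34), NOS2KO (8.72) and WT (8.44). The first step, to NOS2KO controls, separated groups whose arrays did not overlap. All later neighbours in this order overlapped. For mmu-mir-214-a the order was p53KO control (9.71), WT control (9.28), treated p53KO (9.23), NOS2KO control (9.17), treated NOS2KO (9.01), DKO control (8.98), treated DKO (8.95) and treated WT (8.76), and all neighbours overlapped or touched. Both miRNAs were thus highest in p53KO controls and lowest in treated WT arrays, groups that lie in different sets.

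Of the 3 probes named for the miR-199a 5p arm, mmu-mir-199a-2-5p-ap had a value on every array, and the others had fewer values among treated arrays, a difference that did not pass the test. A value for mmu-mir-199a-1-5p-a was present on 17 of 20 control and 7 of 21 treated arrays (Fisher's exact test, two-sided p = 0.00131, adjusted p = 0.243 over 410 probes). For mmu-mir-199a-5p-a the numbers were 16 of 20 and 8 of 21 (exact p = 0.0109, adjusted p = 0.431). Neither passed after adjustment, and 0.244% of the 410 probes with missing cells were called in this test. By group, mmu-mir-199a-1-5p-a had a value on 4 of 5 WT controls and 2 of 5 treated WT arrays, on 4 of 5 and 0 of 5 in NOS2KO, 4 of 4 and 2 of 5 in p53KO, and 5 of 6 and 3 of 6 in the DKO. Within set 1 it was measured on 8 of 10 control and 3 of 8 treated arrays, and within set 2 on 9 of 10 and 4 of 13. For mmu-mir-199a-5p-a these numbers were 8 of 10 and 1 of 8 in set 1 (exact p = 0.0152), and 8 of 10 and 7 of 13 in set 2 (exact p = 0.379). The levels of mmu-mir-199a-1-5p-a where it was measured ran from 6.23 to 8.44. In WT they ran from 7.17 to 8.29 on 4 controls and were 6.226 and 6.235 on 2 treated arrays, too few values for a test.

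The miR-199b probes did not share 1 pattern. The probe mmu-mir-199b-a went the other way, with a value on 2 of 20 control and 12 of 21 treated arrays (exact p = 0.0025, adjusted p = 0.243), at levels of 4.32 to 7.10. All of its control values came from the DKO, and 4 of 5 treated NOS2KO arrays had one. The probe mmu-mir-199b-ap had a value on 14 control and 10 treated arrays (exact p = 0.208, adjusted p = 0.841), among them 5 of 5 WT controls and 1 of 5 NOS2KO controls. The probe mmu-mir-199b-p had 7 and 9 (exact p = 0.751, adjusted p = 1), with levels of 8.90 to 10.25 where measured and no value on any treated NOS2KO array. Too few values per group left mmu-mir-199b-a without any test of its level.

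**Figure D3:**
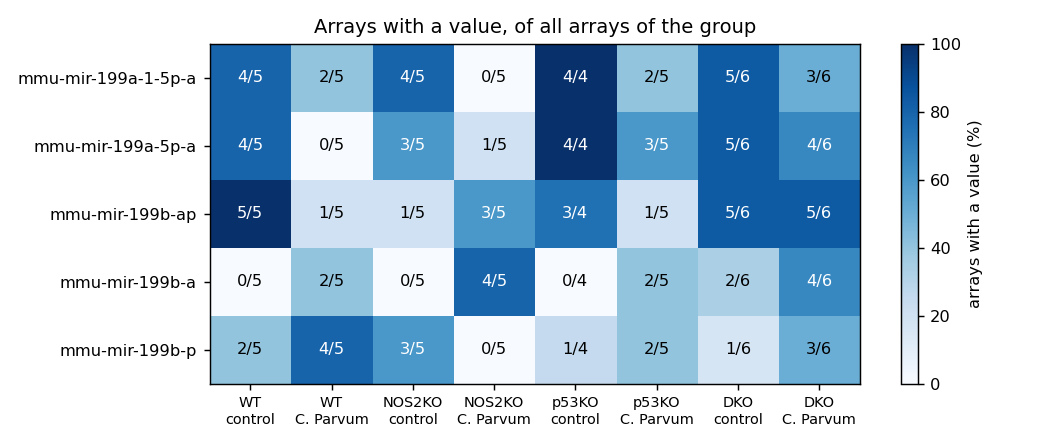
Number of arrays with a value out of all arrays of the group, for the 5 incompletely measured member probes (y axis) in the 8 groups (x axis), shaded by the percentage. The first rows, for the miR-199a 5p probes, are darker in the controls, and the row of mmu-mir-199b-a is empty in the WT, NOS2KO and p53KO controls.

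Inside the groups, some members varied together and others did not. Each array's deviation from its group mean was compared between probes, over 25 pairs of members with 100000 random permutations each. The 3p probes deviated together, with Pearson's r of 0.887 to 0.919 over 41 arrays. Between mmu-mir-199a*-3p-a and mmu-mir-214-a, r was 0.671 (permutation p = 3e-05, adjusted p = 0.000187) and Spearman's rho 0.637 (permutation p = 0.00013, adjusted p = 0.000812). Without the 2 arrays farthest from the median r was 0.554, and within set 1 and set 2 it was 0.57 and 0.737. With mmu-mir-214-a, r was 0.557 for mmu-mir-199a*-1-3p-a and 0.623 for mmu-mir-199a*-2-3p-a. The probe mmu-mir-199b-ap showed no such relation, with r of -0.176 with mmu-mir-214-a, -0.0427 with mmu-mir-199a-2-5p-ap, and -0.00285, -0.15 and -0.0288 with the 3p probes over 21 arrays. The arrays share their scaling, which can move probes of 1 array together.

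The 5p probe measured everywhere deviated in the opposite direction. Between mmu-mir-199a*-3p-a and mmu-mir-199a-2-5p-ap, r was -0.615 (permutation p = 9e-05, adjusted p = 0.00045) and rho -0.561 (permutation p = 0.00095, adjusted p = 0.00475). Without the 2 farthest arrays r was -0.591. It was -0.859 within set 1 and -0.381 within set 2, and -0.424 on the values as deposited. The sparser probe mmu-mir-199a-5p-a, which bears the same arm in its name, had r = 0.55 with mmu-mir-199a*-3p-a over 23 arrays (permutation p = 0.023, adjusted p = 0.0443), and mmu-mir-199a-1-5p-a had r = 0.488 over 24 (permutation p = 0.0385, adjusted p = 0.0642) and rho = 0.409 (permutation p = 0.085, adjusted p = 0.142). For mmu-mir-199a-5p-a r was 0.624 within set 1 and 0.648 within set 2. For mmu-mir-199a-1-5p-a it was 0.86 within set 1 and 0.00914 within set 2. Only the first of these sparse probes thus had a positive relation that passed and was present in both sets.

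**Figure D4:**
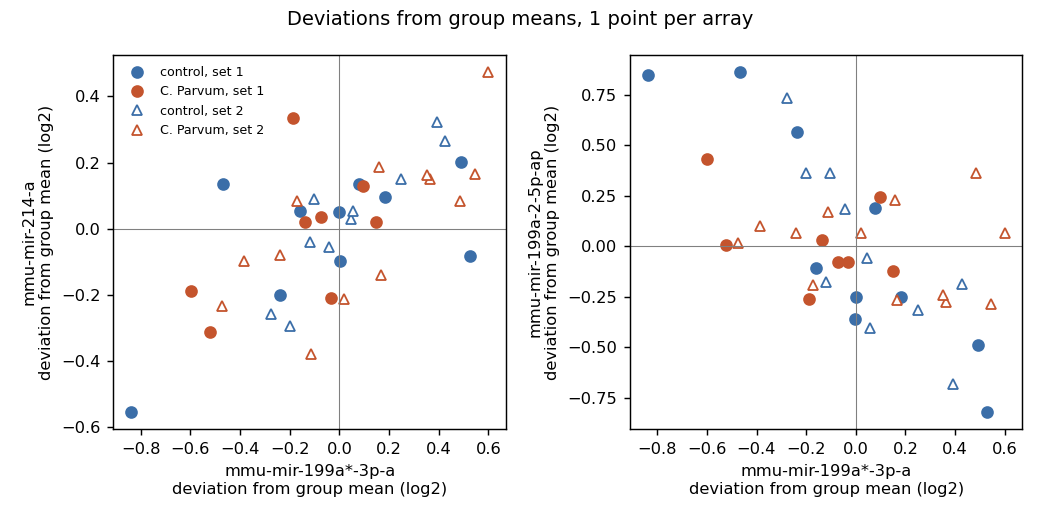
Deviation of each array from its group mean (log2) for mmu-mir-199a*-3p-a (x axes) against mmu-mir-214-a (left) and mmu-mir-199a-2-5p-ap (right), 1 point per array, with controls in blue, C. Parvum in red, filled circles for set 1 and open triangles for set 2. The points run upward on the left (r = 0.671) and downward on the right (r = -0.615).

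Whether the members responded unequally was tested on the difference between 2 probes on the same array, in 8 exact permutation tests, two-sided. The treatment effect on mmu-mir-199a*-3p-a minus mmu-mir-214-a was -0.556 in WT (exact p = 0.0317, adjusted p = 0.0845), -0.773 in NOS2KO (exact p = 0.00794, the smallest possible there, adjusted p = 0.0635), -0.373 in p53KO (exact p = 0.111, adjusted p = 0.148) and -0.181 in the DKO (exact p = 0.277, adjusted p = 0.317). Against mmu-mir-199a-2-5p-ap it was -1.193 in WT, -1.10 in NOS2KO, -1.08 in p53KO and 0.08 in the DKO, with adjusted p of 0.089, 0.089, 0.0845 and 0.89 (exact permutation tests). None of the 8 passed after adjustment. In WT, NOS2KO and p53KO the smallest possible exact p is 0.00794, which for a single result among 8 tests adjusts to 0.0635, so none of these could pass alone.

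Among 222 other probes measured on all arrays, those most like mmu-mir-199a*-3p-a over the 41 levels were mmu-mir-29b-2-a (r = 0.899), mmu-mir-100-a (0.886), mmu-mir-29b-1-a (0.874), mmu-mir-28-p (0.872) and mmu-mir-7-1-p (0.87). These r include the group differences and the sets. For mmu-mir-214-a they were mmu-mir-29b-1-a (0.729), mmu-mir-125b-1-a (0.711), mmu-mir-125b-2-a (0.71), mmu-mir-99a-a (0.691) and mmu-mir-100-a (0.686). No candidate reached the r of 0.767 between mmu-mir-214-a and mmu-mir-199a*-3p-a, whereas 12 candidates were more like mmu-mir-199a*-3p-a than mmu-mir-214-a was. With mmu-mir-199a*-1-3p-a, mmu-mir-214-a had an r of 0.692, and 3 candidates were more like mmu-mir-214-a than that 3p probe was. In turn, 23 candidates were more like mmu-mir-199a*-1-3p-a than mmu-mir-214-a was. The probe mmu-mir-199a-2-5p-ap was closest to mmu-mir-615-a (0.832), mmu-mir-720-a (0.769), mmu-mir-760-p (0.722), mmu-mir-709-a (0.645) and mmu-mir-375-a (0.635), and none of these was among the probes most like the other members.

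The members were set beside 14 other miRNAs known from stromal and smooth muscle cells, with 35 probes. Of these, 9 of 21 tested were called lower and 1 higher in WT, 4 of 24 lower and 1 higher in NOS2KO, 9 of 23 lower and 2 higher in p53KO, and 2 of 24 lower and 3 higher in the DKO. The shares of all probes called are those given for each genotype above. In the mean effect 11 of 21 were called lower and 6 higher, against 26.1% and 31.6% of all probes, with a median change of -0.417 against 0.0745 over all probes. miR-145, abundant in smooth muscle, fell by 0.90 (SE 0.0951) and miR-99a by 1.11 (SE 0.128). miR-100, of the family of miR-99a, fell by 0.86 (SE 0.131). miR-125b fell by 0.72 (SE 0.138) in its probe mmu-mir-125b-2-a. miR-10b, encoded in a Hox cluster, fell by 0.575 (SE 0.118). miR-497, of the miR-15 family, rose by 0.68 (SE 0.0856). All 6 passed in that mean effect, with adjusted p from 4.5e-10 to 6.91e-05. The falls of miR-145 and miR-99a passed in every genotype, the DKO included, at -0.603 (adjusted p = 0.022) and -0.704 (adjusted p = 0.0422) there. So did the rise of miR-497, at 0.456 (adjusted p = 0.0475) in the DKO. Some of these miRNAs are also found in blood progenitors and megakaryocytes.

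**Figure D5:**
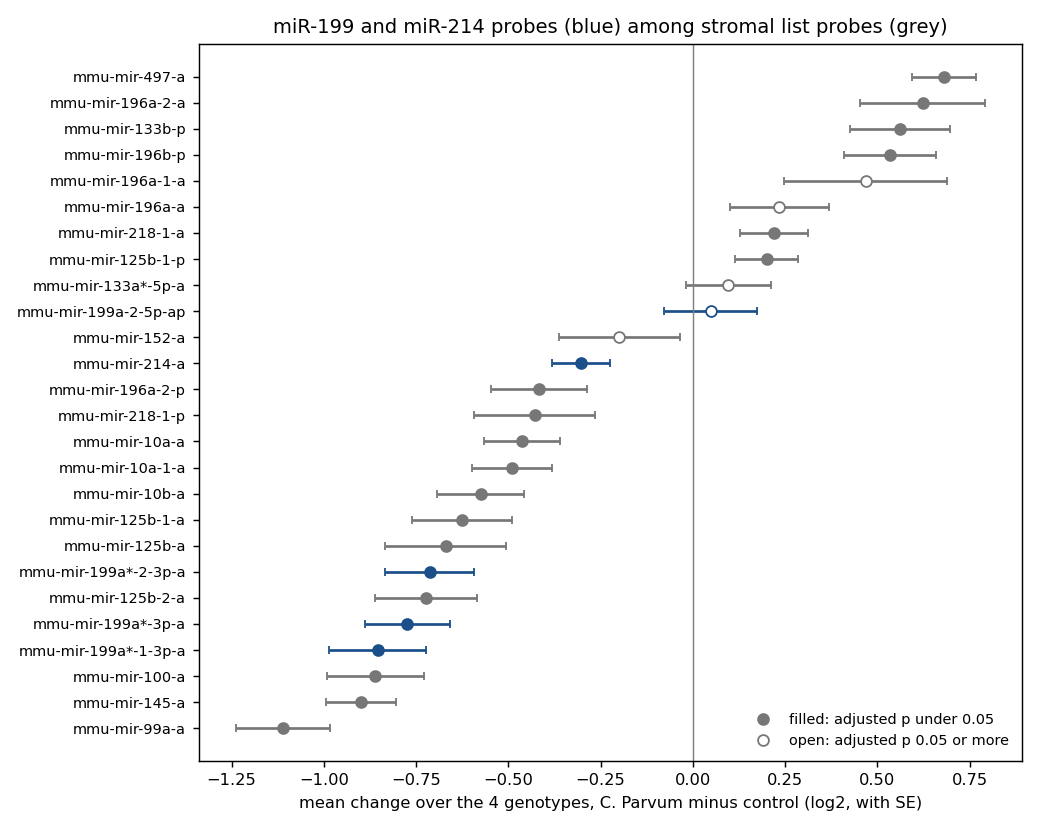
Mean change over the 4 genotypes after C. Parvum (x axis, log2, with SE) of the 5 member probes (blue) and the 21 tested stromal list probes (grey), 1 row per probe (y axis). Filled points passed an adjusted p of 0.05. The 3p probes, at -0.85 to -0.71, lie among the larger falls, mmu-mir-214-a at -0.30 lies in the middle and mmu-mir-199a-2-5p-ap at 0.05 near 0.

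Markers of other cells moved in the same arrays. In the mean effect the erythroid marker miR-486 rose by 2.06 (SE 0.192) and the myeloid marker miR-223 rose by 0.70 (SE 0.0924). The lymphoid marker miR-150 fell by 0.98 (SE 0.138). The endothelial marker miR-126*, the other arm of miR-126, fell by 0.47 (SE 0.0822) in the probe listed under its older name miR-123. The probe named for the 3p arm of miR-126 had values on 4 arrays and was not tested. In that effect 31.6% of all probes tested were called higher and 26.1% lower. Of 5 erythroid probes 2 could be tested there, and both were called higher, while 4 of 4 tested endothelial probes were called lower. In the DKO alone, where 7.96% of probes were called higher and 6.1% lower, 0 of 5 erythroid probes were called and 2 of 4 endothelial probes were lower. In the mean effect 1 of 3 myeloid probes was called higher and 1 lower, and of 4 lymphoid probes 1 was called higher and 2 lower. The DKO alone had 1 of 3 myeloid probes called higher and 0 lower, and 0 of 4 lymphoid probes called higher and 1 lower. The mean level over the erythroid probes measured on all arrays ran from 11.55 to 12.19 in WT controls and from 13.51 to 14.01 in treated WT arrays, and from 12.96 to 13.57 and 13.11 to 13.92 in the DKO. For the stromal probes it ran from 9.53 to 10.09 and 9.14 to 9.43 in WT, and from 9.44 to 9.72 and 9.23 to 9.70 in the DKO. In p53KO the stromal level ran from 9.655 to 9.879 in controls and from 9.07 to 9.652 after treatment. In NOS2KO, where the 3p probes fell, it ran from 9.248 to 9.717 and from 9.298 to 9.72. The median change of the tested stromal probes in NOS2KO was -0.0469. Every marker probe had a value on at least 1 array, but not all were fully measured, such as mmu-mir-144-a with 34 values and mmu-mir-181a*-3p-a with 1. The probes mmu-mir-150-a, mmu-mir-223-a, mmu-mir-486-a and mmu-mir-123-a had a value on each of the 41. The part of cell composition in the falls of the members was not tested, nor was it tested whether their signal came from stromal cells.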

How the data were processed

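The authors deposited 1 table of processed values, read as log2, with 637 probes and 41 arrays. The base was inferred from the values (highest 16.9), and how the authors scanned, corrected and scaled the arrays is not stated here. Groups follow the genotype and treatment labels. Array medians spanned 0.705, above the limit of 0.5, so arrays were quantile normalized, with missing cells ranked lowest and left missing. A shift common to all probes is lost by this. Group means were fitted per probe by least squares with moderated variances (limma 3.58.1, R 4.3.3). P-values were adjusted by Benjamini-Hochberg over all probes of a comparison, with a threshold of 0.05 and at least 3 values per group. The procedure was tested on simulated data, for the WT treatment effect only, with noise drawn independently for each probe and without array sets. That test does not cover the comparisons that cross the sets. The number of arrays limits the precision. The members, the lists and the rule for named miRNAs (all members, the 5 most like each, 6 stromal miRNAs with the smallest p, the brightest probe of each other marker list) were chosen with earlier results of these data known. Sequences were matched by name to RefSeq tables. The endothelial, myeloid, lymphoid and erythroid lists held 2, 2, 3 and 3 miRNAs. Alternatives covered scaling, missing cells, array sets, replicate numbers, array weights and left-out arrays.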

Additional observations from a re-analysis of the deposited data

Results flagged for a closer look

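One value of 54 group and probe combinations with 4 to 6 values stood apart from its group by Dixon's test. In NOS2KO control 2, mmu-mir-199a*-1-3p-a was at 9.10, while the other NOS2KO controls were at 9.64 to 9.85. Chance alone gives such a value in about 1 of 20 groups. The other 3p probes were also lowest among NOS2KO controls on that array, at 9.57 for mmu-mir-199a*-2-3p-a and 9.38 for mmu-mir-199a*-3p-a, and mmu-mir-199a-2-5p-ap was the highest of these controls there, at 10.78.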

How the results depend on the processing

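The treatment calls of mmu-mir-199a*-3p-a in WT and p53KO, and those of mmu-mir-199a*-3p-a and mmu-mir-214-a in the mean effect, kept direction and call under every alternative fitted. The cause of the changes below was not tested. On the values as deposited, mmu-mir-199a-2-5p-ap changed sign in WT (-0.133), NOS2KO (-0.0837), p53KO (-0.0439) and the mean effect (-0.158), as did mmu-mir-199b-ap in the DKO (-0.0513), the p53KO difference of effects of mmu-mir-214-a (-0.046) and the DKO control difference of mmu-mir-199a*-3p-a (-0.0205), while the p53KO control difference of mmu-mir-214-a gained a call (0.667). Median centring ended the miR-214 calls in p53KO (-0.408) and between treated p53KO and WT (0.37), and turned miR-214 in the DKO (0.0298) and the DKO control difference of mmu-mir-199a*-3p-a (-0.021). Only probes measured on all arrays gave the p53KO control difference of miR-214 a call (0.43), and only the arrays compared ended the calls of miR-214 (-0.481) and mmu-mir-199a*-1-3p-a (-0.804) in p53KO and of mmu-mir-199a*-2-3p-a in NOS2KO (-0.769), fewer probes or arrays entering by construction. Missing cells at a low value also ended the p53KO call of mmu-mir-199a*-1-3p-a (-0.804).

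With the array set as a block, the calls of mmu-mir-199a*-3p-a ended between p53KO and WT controls (0.167), treated p53KO and WT (0.397) and treated DKO and WT (0.4), and that of miR-214 between treated p53KO and WT (0.328). The block turned mmu-mir-199a*-3p-a between NOS2KO and WT controls (-0.469), treated NOS2KO and WT (-0.0816) and DKO and WT controls (-0.0644), and the DKO effects of mmu-mir-199a-1-5p-a (0.0156) and mmu-mir-199a-5p-a (0.0621). Within set 1 the DKO effects of these (0.672 and 0.818) and of mmu-mir-214-a (0.351) were positive. They rest on DKO C. Parvum 6, the only treated DKO array of that set. There mmu-mir-199a*-3p-a turned between treated NOS2KO and WT (-0.278) and DKO and WT controls (-0.0489), and had r = -0.859 with mmu-mir-199a-2-5p-ap. Its difference between treated DKO and WT was 0.716, again with that single treated DKO array. Within set 2, and without NOS2KO C. Parvum 1 and 2 (chosen after seeing the data), mmu-mir-199a*-3p-a lost its NOS2KO call (-0.566) and miR-214 stood at 0.000202. In set 2 the share measured in control minus treated arrays was -3.85 percentage points for mmu-mir-199b-ap and 9.23 for mmu-mir-199b-p, opposite to all arrays. Array weights turned mmu-mir-199a-2-5p-ap in WT (-0.0407) and the mean effect (-0.000253) and the p53KO difference of effects of miR-214 (-0.022), and gave calls to the p53KO control difference of miR-214 (0.472) and the DKO difference of effects of mmu-mir-199a*-3p-a (0.763).

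Leaving out each array in turn changed a call or a sign of the following, given from lowest to highest, and moved DKO effects that were not called by more than 1.5 times. The effects on mmu-mir-199a-2-5p-ap ran from -0.0975 to 0.324 in WT, from -0.0102 to 0.344 in NOS2KO and from -0.0022 to 0.103 in the mean effect. That on mmu-mir-214-a ran from -0.579 to -0.422 in p53KO and from -0.147 to 0.0395 in the DKO. In the DKO mmu-mir-199a-1-5p-a ran from -0.429 to 0.0253 and mmu-mir-199a-5p-a from -0.558 to 0.324. Differences of effects from WT ran from -0.00452 to 0.295 (mmu-mir-199a*-3p-a, NOS2KO), from 0.699 to 0.984 (mmu-mir-199a*-3p-a, DKO) and from -0.0504 to 0.106 (mmu-mir-214-a, p53KO). Differences from WT controls ran from 0.654 to 0.903 (mmu-mir-199a*-3p-a, p53KO), from 0.38 to 0.528 (mmu-mir-214-a, p53KO) and from -0.0807 to 0.204 (mmu-mir-199a*-3p-a, DKO). The difference of mmu-mir-214-a between treated p53KO and WT ran from 0.425 to 0.536.

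The main fits did not pair arrays by the replicate numbers of the labels. Same-numbered control and treated arrays had correlations of -0.408 to 0.302 between their deviations, above 0.1 in 4 of 20 pairs. Differently numbered arrays were not compared, so these values cannot decide whether the numbers mark pairs. With the replicate block, 0 of 53 results changed call or sign, mmu-mir-199a*-3p-a changed by -0.885 in p53KO and by -0.782 in the mean effect, and the WT effect called 107 probes in place of 110. Missing cells limit what can be said of the sparse miR-199a 5p and miR-199b probes.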
